A study of Sus scrofa with 64 samples.

Results

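The enzymes of glycolysis and their isoforms were followed over 16 tissues of the pig. The genes chosen by symbol were GPI, PFKM, ALDOA, GAPDH, PGK1, ENO1, ENO3, LDHA and LDHB. Every probe (a probe set of the array) was taken whose symbol in the platform annotation was 1 of these, and 8 of the 9 genes had a probe, with none named for ALDOA. They have 21 of the 24123 probe sets, of which 12 are among the 23935 probes tested and 9 are control sets for GAPDH. GAPDH has 5 tested probes and each other gene has 1, and the brightest probe of a gene stands for it unless another is named. The symbol LDHB stands for more than 1 entry among the RefSeq genes (Sscrofa11.1), so copies of this gene cannot be told apart here.

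Messenger RNA was hybridised to 64 Affymetrix porcine arrays, 1 for each tissue of each of 4 pigs: a male (LWM) and a female (LWF) of Large White, a lean and fast growing breed, and a male (IBM) and a female (IBF) of Iberian, a fat local breed. LWM and LWF were 87 days old and weighed 38.8 and 36.2 kg, while IBM and IBF were 89 days old and weighed 25.4 and 32.8 kg. No treatment separates the groups. The samples were of brain (hypothalamus, olfactory bulb), of endocrine glands (pineal gland, neurohypophysis, adenohypophysis, thyroid gland, medulla and cortex of the adrenal gland), of muscle (biceps femoris, diaphragm), of fat (abdominal fat, back fat), and of liver, stomach, ileum and blood. With 2 pigs of each breed, a breed difference cannot be told apart from a difference between these animals, and the breeds also differed in age and weight.

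Of 33 measured markers of the tissues, 31 were highest in the tissue they mark. The steroid synthesis markers were at 12.42 in adrenal cortex and 12.33 in adrenal medulla on average. The medulla marker PNMT was at 8.08 to 10.68 in cortex and at 10.74 to 11.73 in medulla, higher in the medulla of every pig. There were 2 arrays set apart. The pineal array of LWM had the pineal markers SAG and NEUROD1 at 5.09 and 6.10, against 8.08 to 10.36 and 9.22 to 9.27 in the other pigs, and the mean of 3 glial markers at 10.57 against 7.31 to 8.07. The biceps femoris array of IBF was the other, and no measure that set it apart is given here. To the authors only the pineal array of LWM seemed an outlier. The biceps femoris array of IBF had a mean of 3 muscle markers of 12.26, against 12.61 to 12.78 in the other pigs. The diaphragm array of LWF, which was not set apart, was also low in that mean, at 12.37 against 12.76 to 12.85. Results were also computed without both arrays. All levels are log2 values after RMA normalization by the authors, between 1.78 and 14.47 with a median of 5.46, and 1 unit is a 2-fold change. A level of 1 probe cannot be set against that of another. In bulk tissue, fewer cells of a type and less RNA per cell cannot be told apart.

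Glycolysis splits glucose to pyruvate and yields ATP without oxygen. Glucose-6-phosphate isomerase (GPI) and the muscle form of phosphofructokinase (PFKM) act in the first part of the pathway. Glyceraldehyde-3-phosphate dehydrogenase (GAPDH), phosphoglycerate kinase (PGK1) and enolase act in the second, where ATP is made. Enolase subunits are the alpha form of most cells (ENO1) and the beta form of striated muscle (ENO3). Lactate dehydrogenase interconverts pyruvate and lactate as a tetramer of M subunits (LDHA), typical of fast muscle, and H subunits (LDHB), typical of heart.

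The 8 genes differed widely in how far their level moved between tissues. ENO3 covered a range of 8.77 log2 units between tissue means (436-fold), more than 99.5% of all probes, and PFKM covered 6.97 units (125-fold). Their lowest tissue means, 4.25 in adrenal cortex and 5.20 in blood, lie under the median of all values (5.46), where an array may not tell a low level from none, so both folds may understate the range. LDHA covered 5.33, GPI 3.95, LDHB 2.95 and PGK1 2.49 units. GAPDH and ENO1 covered 1.71 and 1.58 units, close to the median of all probes (1.74), and 48.9% and 43.8% of the probes had a smaller range. The GAPDH value is that of its brightest probe, which reached 14.27 where the highest value of the data is 14.47, and dimmer GAPDH sets had larger differences between muscle and other tissues (up to 2.76 against 1.10). Tissue took between 88.8% (ENO1) and 98.0% (PFKM) of the sum of squares of each gene, against a median of 81.5% over all probes. Breed took at most 1.21% (GAPDH) and sex at most 0.395% (ENO1).

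**Figure D1:**
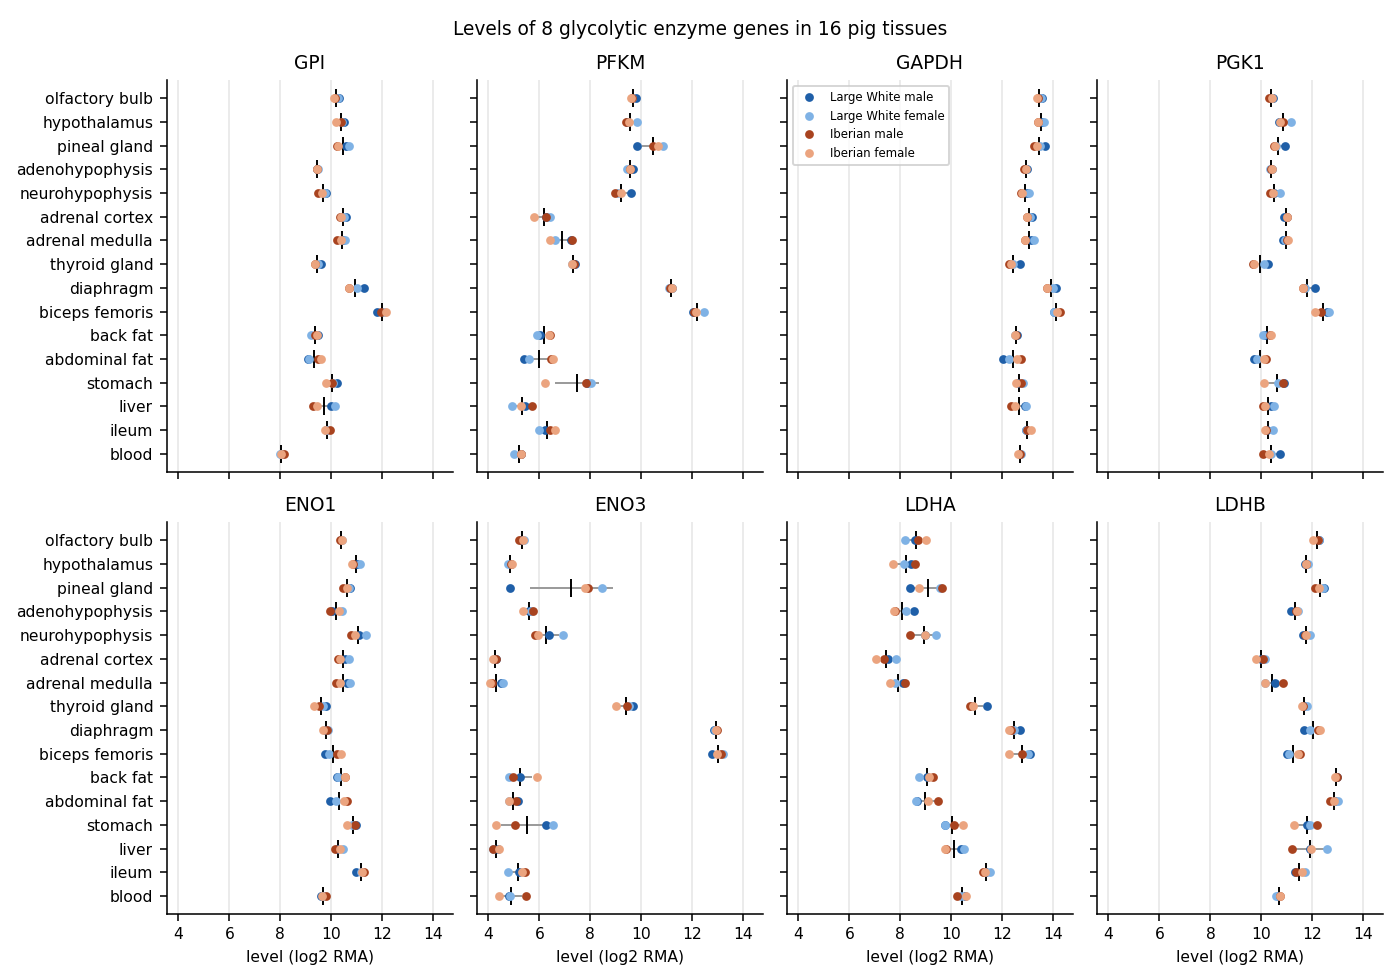
Level (horizontal axis, log2 RMA) of the 8 genes in 16 tissues (vertical axis), with 1 point per pig, a tick at the mean and a bar of ± 1 SD over 4 pigs. ENO3, LDHA and PFKM are highest in diaphragm and biceps femoris, while LDHB is highest in the fats at 12.94 and 12.86, and ENO1 in ileum at 11.16.

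Both muscles had high levels of most glycolytic genes. In limma, 9 of the 12 probes were higher in diaphragm and biceps femoris than in the other 14 tissues and 1 was lower, where 35.4% of all probes were higher and 34.9% lower. The median difference was 1.75 over the 12 probes and 0.02 over all probes. Each of the 8 muscle arrays lay above all 56 other arrays for PFKM, GAPDH, PGK1, ENO3 and LDHA, and the smallest distance was that of GAPDH, from 13.74 on the lowest muscle array to 13.66 on the highest other one. For GPI the ranges met at 10.70.

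ENO3 had the steepest profile. On the diaphragm arrays it was at 12.85 (LWM), 12.90 (LWF), 12.97 (IBM) and 12.91 (IBF), and on the biceps femoris arrays at 12.77, 13.20, 13.13 and 12.96 in the same order. The muscles did not overlap with any other tissue, and the next was the thyroid gland at 9.40 ± 0.29 (SD, n = 4). Between the muscles and the other tissues the difference was 7.44 ± 0.20 (SE), or 174-fold, with an adjusted p of 4.99e-36. ENO1 went the other way. It was at 9.78 ± 0.09 in diaphragm and 10.07 ± 0.28 in biceps femoris (SD, n = 4), and was 0.53 ± 0.07 (SE) lower in the muscles, with an adjusted p of 6.79e-09. Its muscle arrays overlapped with other tissues, and it was highest in ileum (11.16) and neurohypophysis (11.03).

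PFKM makes the committed step of glycolysis in muscle. It was at 11.20 (LWM), 11.08 (LWF), 11.13 (IBM) and 11.22 (IBF) in diaphragm, and at 12.04, 12.44, 12.07 and 12.13 in biceps femoris. It was 4.14 ± 0.13 (SE) higher in the muscles (17.6-fold, adjusted p = 4.61e-33). Outside muscle it fell into separate groups of tissues. The pineal gland (10.45), olfactory bulb (9.67), hypothalamus (9.55), adenohypophysis (9.55) and neurohypophysis (9.21) were all above the other 9 tissues, which lay between 5.20 in blood and 7.48 in stomach. Every array of these 5 tissues, from 8.96 upwards, lay above every array of those 9, the highest of which was at 8.02 in the stomach of LWF.

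LDHA was at 12.71, 12.46, 12.32 and 12.27 in diaphragm and at 13.06, 13.01, 12.77 and 12.25 in biceps femoris (LWM, LWF, IBM, IBF), and was 3.39 ± 0.13 (SE) higher in the muscles (10.5-fold, adjusted p = 1.50e-29). GPI rose by 1.69 ± 0.07 (adjusted p = 1.12e-28) and PGK1 by 1.65 ± 0.07 (adjusted p = 2.31e-26), which are 3.22-fold and 3.14-fold changes. LDHB was at 11.64 in the muscles and 11.65 elsewhere, a difference of -0.01 ± 0.09 (adjusted p = 0.91). Its level differed between the muscles, with diaphragm at 12.02 and biceps femoris at 11.25.

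Of 23 other glycolytic enzymes 13 were measured, and 7 were higher in the muscles, 5 lower and 1 did not pass, where 35.4% of all probes were higher and 34.9% lower. Their median difference was 0.28. PGAM2, the muscle form of phosphoglycerate mutase, was at 12.39 in the muscles and 5.02 elsewhere (165-fold, adjusted p = 1.81e-49). Triosephosphate isomerase (TPI1) was 5.51-fold higher. Neuronal enolase (ENO2) was 5.52-fold lower in the muscles and brain-type aldolase (ALDOC) 3.24-fold lower. ENO2 was at 4.92 in the muscles. This level and the 5.02 of PGAM2 outside muscle lie under the median of all values (5.46), so these folds may understate the difference.

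Of 11 glucose and lactate transport genes 9 were measured, of which 4 were higher in the muscles and 3 lower, counts near the shares of all probes (35.4% and 34.9%). SLC16A3 (MCT4), which exports lactate, was 12.0-fold higher and the glucose transporter SLC2A12 3.73-fold higher. Outside muscle they were at 3.48 and 4.37, under the median of all values (5.46), so both folds may understate the difference. The transporters SLC2A1 and SLC2A3 were 2.89-fold and 1.64-fold lower, with SLC2A1 at 5.15 in the muscles, also under that median. Of 20 genes of the PFKFB and pyruvate dehydrogenase list, which governs fructose-2,6-bisphosphate and the entry of pyruvate into the mitochondrion, 10 were measured, with 8 higher and 2 lower. Pyruvate dehydrogenase kinase PDK4, which switches the complex off, was 5.77-fold higher, the complex subunits PDHA1 and DLAT 3.69-fold and 3.05-fold higher, and the pyruvate carrier MPC2 2.10-fold higher.

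The 2 muscles were then compared with each other, diaphragm being the more oxidative and biceps femoris the more glycolytic in the description of the study. Of the 12 probes 5 were higher in biceps femoris and 1 was lower, where 13.1% of all probes were higher and 12.1% lower. The higher ones were GPI, PFKM, PGK1 and 2 GAPDH probes, those with means of 9.10 (1.25 ± 0.18, SE, adjusted p = 1.80e-06) and 4.31 (0.67 ± 0.16, adjusted p = 0.00163). GPI was at 11.80 (LWM), 12.06 (LWF), 11.94 (IBM) and 12.15 (IBF) in biceps femoris and at 11.27, 10.99, 10.71 and 10.70 in diaphragm. The muscles did not overlap, and the difference was 1.07 ± 0.12 (SE, adjusted p = 6.94e-09). PFKM differed by 1.01 ± 0.24 (adjusted p = 0.00162) and PGK1 by 0.65 ± 0.14 (adjusted p = 4.14e-04), both higher in biceps femoris in 4 of 4 pigs.

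LDHB ran against them. It was at 11.67, 11.91, 12.21 and 12.29 in diaphragm and at 11.01, 11.06, 11.51 and 11.42 in biceps femoris (LWM, LWF, IBM, IBF), lower in biceps femoris in 4 of 4 pigs by 0.66 to 0.87. The muscles did not overlap, and LDHB fell by 0.77 ± 0.17 (SE, adjusted p = 5.26e-04). The other leading probes did not pass between the muscles. The differences were 0.11 ± 0.38 for ENO3 (adjusted p = 0.87), 0.33 ± 0.24 for LDHA (adjusted p = 0.32), 0.29 ± 0.13 for ENO1 (adjusted p = 0.10) and 0.21 ± 0.11 for the brightest GAPDH probe (adjusted p = 0.17). Without the 2 arrays set apart, 6 of the 12 probes passed, where 3529 of all 23935 probes did. The differences were then 0.99 for GPI, 1.01 for PFKM, 0.73 for PGK1 and -0.83 for LDHB. When only the 8 muscle arrays were fitted, 2 of the 12 probes passed, both higher in biceps femoris. In that fit 134 of all 23935 probes passed, against 6011 in the main fit. The adjusted p there was 0.061 for GPI, 0.062 for LDHB and 0.10 for PGK1. On the natural logarithm of the deposited values, PFKM did not pass (adjusted p = 0.068), and after a further quantile normalization GAPDH did (difference of 0.32, adjusted p = 0.042).

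**Figure D2:**
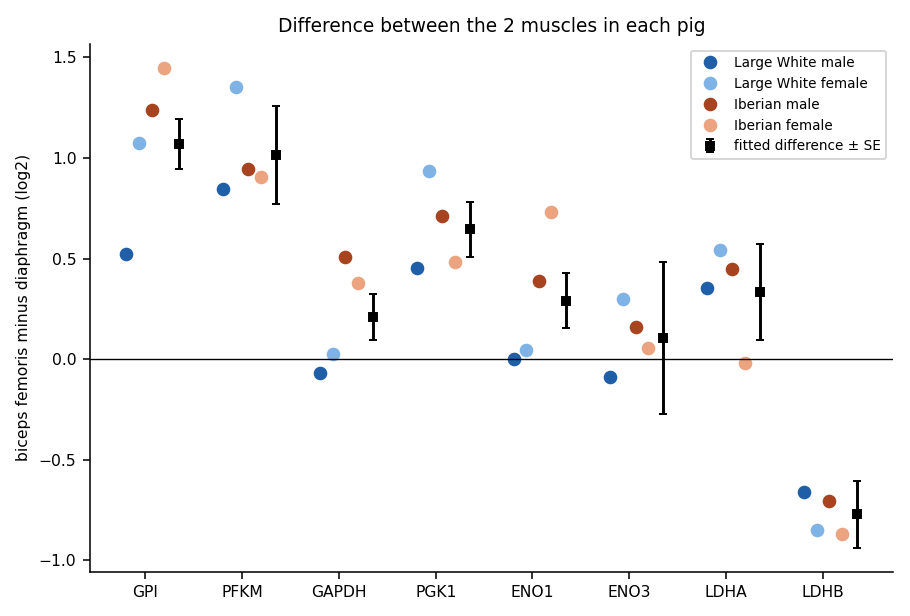
Biceps femoris minus diaphragm (vertical axis, log2) for 8 genes (horizontal axis), with 1 point per pig and the limma estimate ± SE as a square. GPI, PFKM and PGK1 are above 0 in all 4 pigs and LDHB below 0 in all 4, while the pigs differ in sign for GAPDH, ENO3 and LDHA.

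The lists of fibre genes moved alongside, and their part in these differences was not tested. Of 6 measured fast fibre genes 3 were higher in biceps femoris, where 13.1% of all probes were. The list had a mean of 12.42 to 12.73 in biceps femoris against 11.09 to 11.64 in diaphragm. Its largest differences were those of MYH2 (3.56) and ATP2A1 (1.68). TNNT3, TNNI2, TNNC2 and MYLPF differed by 0.46, 0.42, 0.15 and 0.05. MYH2, the myosin of fast oxidative fibres, was 11.8-fold higher in biceps femoris (adjusted p = 2.44e-10). Of 8 slow fibre genes 2 were lower, where 12.1% of all probes were. The slow list had means of 11.59 to 11.81 in biceps femoris and 11.94 to 12.09 in diaphragm. It includes CASQ2, which was low in both, at 4.23 and 3.91. The slow myosin MYH7 was at 13.35 or more on every muscle array. Fat markers were at a mean of 6.19 to 7.12 in biceps femoris and 5.47 to 7.20 in diaphragm, which overlap.

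Of the 13 other glycolytic enzymes 3 were higher in biceps femoris and none was lower, where 13.1% of all probes were higher and 12.1% lower. The higher ones were BPGM, which makes 2,3-bisphosphoglycerate (4.34-fold), PGAM2 (1.89-fold) and TPI1 (1.68-fold). Among the transporters 3 of 9 passed, all higher, beside the same 13.1% of all probes. SLC16A3 was 2.82-fold and SLC2A1 2.05-fold higher. SLC2A1 was at 5.67 in biceps femoris and at 4.63 in diaphragm, the latter under the median of all values. SLC2A2 was at 3.51 in biceps femoris and 3.02 in diaphragm, far under that median, so no fold is given for it. The pyruvate dehydrogenase list was mostly lower, in 6 of its 10 genes, with 1 higher, beside 12.1% and 13.1% of all probes. The subunits DLD, PDHA1 and DLAT were 2.58-fold, 1.71-fold and 1.64-fold lower in biceps femoris, and the kinase PDK3 was 2.05-fold higher. PDK3 was at 5.14 in diaphragm, also under the median of all values.

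The subunits of lactate dehydrogenase varied separately over the tissues. Pearson's r of the tissue means of LDHA and LDHB was 0.13 (n = 16 tissues of the same 4 pigs), a description only. The fats were the tissues with most LDHB, with back fat at 12.94 ± 0.03 and abdominal fat at 12.86 ± 0.14 (SD, n = 4), and all of their arrays (12.68 to 13.01) were above those of every other tissue, the highest of which was at 12.56 in the liver of LWF. LDHA in the fats was at 9.04 and 8.95, below muscle, ileum, thyroid gland, blood, liver and stomach. Adrenal cortex had the lowest mean of both, at 9.99 for LDHB and 7.44 for LDHA.

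The difference LDHB minus LDHA has no zero of its own, since it sets 2 probes against each other, and it was therefore taken relative to its mean over the 64 arrays. It was lowest in biceps femoris (-3.53) and diaphragm (-2.42), followed by ileum (-1.87), blood (-1.75) and thyroid gland (-1.28). It was highest in abdominal fat (1.91), back fat (1.90), olfactory bulb (1.57) and hypothalamus (1.55). Between the muscles it was 1.10 lower in biceps femoris and lower in 4 of 4 pigs, and the exact permutation test, two-sided, gave p = 0.0571 (n = 4 per muscle), where 0.0286 is the smallest p that 4 against 4 arrays allow. The paired exact test of the 4 animals gave p = 0.125, the smallest it allows. The same difference for enolase, ENO3 minus ENO1, was 0.18 lower in biceps femoris, with an exact p of 0.286 and a paired exact p of 0.50.

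**Figure D3:**
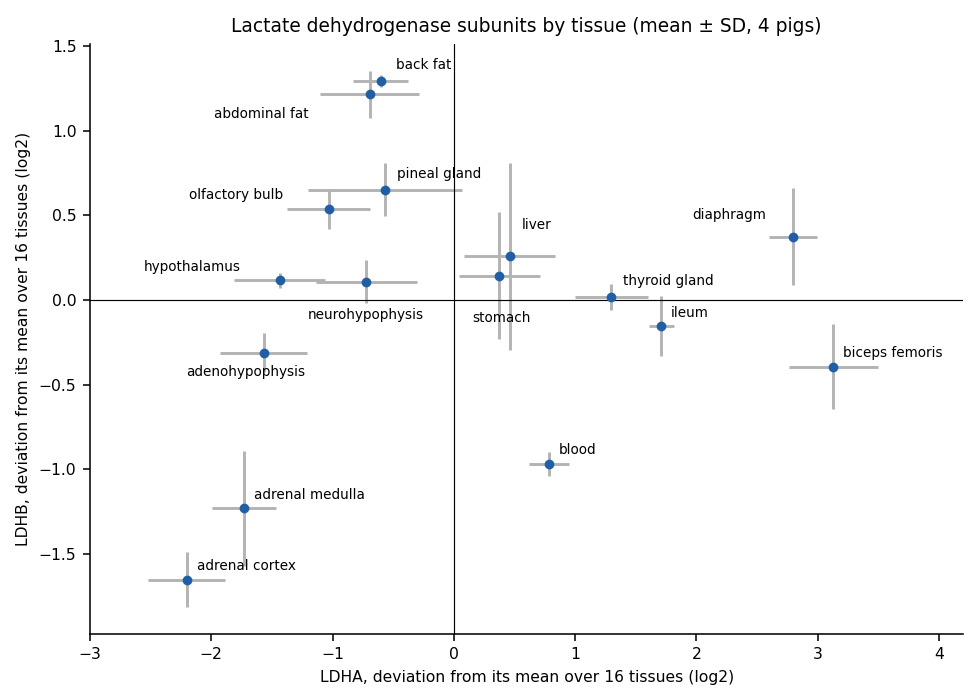
Deviation of LDHB (vertical axis, log2) against that of LDHA (horizontal axis, log2), each from its own mean over 16 tissues, with 1 point per tissue and bars of ± 1 SD over 4 pigs. The muscles lie at the right (LDHA deviations of 2.80 and 3.13), the fats at the top (LDHB deviations of 1.30 and 1.22) and the adrenal tissues at the lower left.

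In the thyroid gland 3 of the 12 probes were higher and 7 lower than in the other 15 tissues, where 23.5% and 30.0% of all probes were. Of the 8 leading probes 2 were higher and 5 lower, and the GAPDH probes were called in both directions. ENO3 set this tissue apart from the others outside muscle. ENO3 was at 9.66 (LWM), 9.51 (LWF), 9.43 (IBM) and 8.98 (IBF) there, above every array outside muscle, and was 3.14 ± 0.28 (SE) higher than in the other tissues together (adjusted p = 5.73e-14). LDHA was 1.38 ± 0.17 higher (adjusted p = 2.38e-09), with a mean of 10.94 against 11.36 in ileum. PFKM, the muscle form of phosphofructokinase, was 0.76 ± 0.18 lower (adjusted p = 3.11e-04), and ENO1 was 0.86 ± 0.10 lower and had its lowest tissue mean there (9.58). Muscle markers on the thyroid arrays were far below those on the muscle arrays. CKM was at 3.11 to 3.64 and MYOT at 2.62 to 2.89, against 13.47 to 13.59 and 11.41 to 12.26 on the muscle arrays, while TTN was at 4.47 to 5.53 against 11.52 to 12.78.

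In the pineal gland ENO3 was at 8.44 (LWF), 7.92 (IBM) and 7.78 (IBF) but at 4.86 in LWM, the array with low pineal markers. The hypothalamus arrays were at 4.77 to 4.93 for ENO3, so LWM lay within their range. PFKM on that array was at 9.83 against 10.46 to 10.87 in the other pigs, and the hypothalamus arrays were at 9.41 to 9.82. In stomach, ENO3 was at 6.24 and 6.54 in the Large White pigs and at 5.04 and 4.29 in the Iberian pigs, a breed difference that did not pass (adjusted p = 0.060). CKM in stomach was at 8.69 in LWF and at 3.56 to 4.03 in the other pigs.

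Olfactory bulb and hypothalamus combined high PFKM with low LDHA, which was not particular to them. PFKM and LDHA were at 9.55 and 8.07 in adenohypophysis, 9.21 and 8.92 in neurohypophysis and 10.45 and 9.08 in pineal gland. These 3 glands are among the other tissues in the comparison that follows. With olfactory bulb and hypothalamus together against the other tissues, 7 probes were higher and 2 lower. Of all probes 24.4% were higher and 43.3% lower. PFKM rose by 1.79 ± 0.13 (SE, 3.46-fold, adjusted p = 1.43e-17), GAPDH by 0.50 ± 0.06 (adjusted p = 3.22e-10), LDHB by 0.37 ± 0.09 (adjusted p = 2.52e-04), GPI by 0.35 ± 0.07 and ENO1 by 0.32 ± 0.07. LDHA was 1.41 ± 0.13 lower (adjusted p = 3.35e-14) and ENO3 1.56 ± 0.20 lower (adjusted p = 1.98e-09). ENO1 was at 10.95 in hypothalamus and at 10.38 in olfactory bulb, and the olfactory bulb alone did not pass against the other 15 tissues (adjusted p = 0.97).

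In the fats 1 probe was higher and 9 were lower in each depot. The shares of all probes were 19.0% higher and 23.1% lower for back fat, and 16.9% and 22.4% for abdominal fat. The higher one was LDHB, by 1.38 ± 0.12 (SE) in back fat and 1.30 ± 0.12 in abdominal fat. PFKM fell by 1.98 ± 0.18 in back fat and fell by 2.19 ± 0.18 in abdominal fat, and GAPDH had its lowest tissue mean in abdominal fat (12.40 ± 0.31, SD, n = 4).

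Blood had 3 higher and 9 lower probes, against 43.5% and 35.0% of all probes. Of the 8 leading probes 1 was higher and 7 were lower, so the GAPDH probes were called in both directions. GPI was at 8.04 (LWM), 7.97 (LWF), 8.13 (IBM) and 8.01 (IBF), 0.96 below the next array of any tissue. LDHA was 0.84 ± 0.17 (SE) higher than in the other tissues and LDHB 1.03 ± 0.12 lower. In liver 1 probe was higher and 8 were lower, where 20.5% and 28.8% of all probes were. LDHA was the higher one (0.49 ± 0.17, adjusted p = 0.016), PFKM (difference of -2.88 ± 0.18) and ENO3 (difference of -2.30 ± 0.28) were lower. Adrenal cortex and medulla each had 2 higher and 6 lower probes, where 18.9% and 20.0% of all probes were higher and lower in cortex, and 19.9% and 23.8% in medulla. GPI (0.51 ± 0.09 in cortex) and PGK1 (0.33 ± 0.10) were higher there, while both lactate dehydrogenase subunits, ENO3 and PFKM were lower. Over the 16 tissues, 141 of 192 tests of the 12 probes passed, against 50.2% of all tests.

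Extreme probes, whose 4 arrays of a tissue all lie above or all below every other array, were found 7 times among the 192 combinations of probe and tissue, with 1.73% of the combinations of all probes. Biceps femoris had 5, all higher, of PFKM (by 0.82 over the next array), GAPDH (3 probes) and GPI (by 0.52). The GAPDH probes include the one with a mean of 9.10. The share of 1.73% is over all 16 tissues together and not for biceps femoris alone. The other extreme probes were GPI in blood and, in liver, the GAPDH probe with a mean of 9.10, both lower.

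GAPDH, a common reference gene for expression, is the gene with most probe sets. The brightest was at 14.11 ± 0.11 in biceps femoris and 13.90 ± 0.18 in diaphragm (SD, n = 4), near the highest value of the data (14.47), and at 12.40 to 13.50 in the other tissues. It was 1.10 ± 0.06 (SE) higher in the muscles, a 2.15-fold change (adjusted p = 1.74e-22). How large the muscle difference was depended on the probe set. Over the 12 sets with a mean above 9, control sets included, it ranged from 1.10 to 2.76, or from 2.15-fold to 6.78-fold, and was lowest in the 3 brightest sets (1.10, 1.22 and 1.31). Of the 2 dim sets, that at a mean of 4.31 differed by 2.45 ± 0.09 and that at 3.60 by 0.14 ± 0.08 (adjusted p = 0.10).

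**Figure D4:**
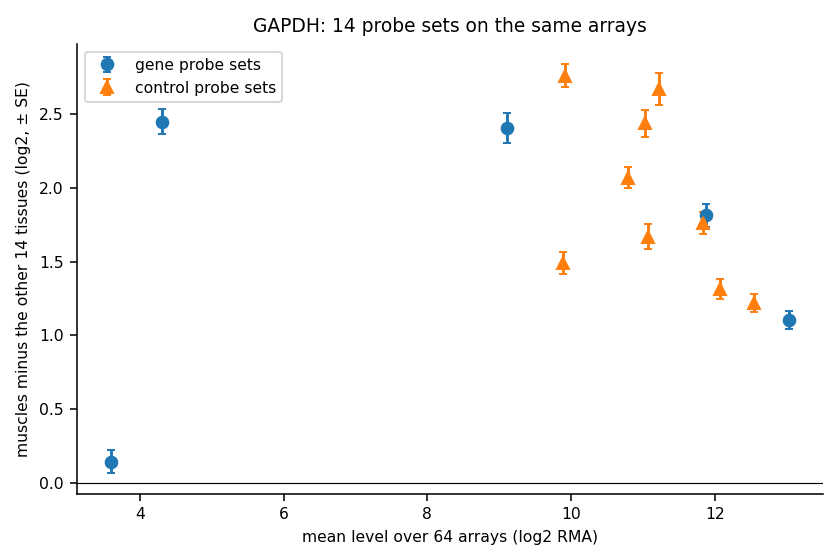
Muscles minus the other 14 tissues (vertical axis, log2, with SE) against mean level over 64 arrays (horizontal axis, log2 RMA) for 14 GAPDH probe sets, circles for tested probes and triangles for control sets. The brightest set has a difference of 1.10, and sets with means of about 9 to 11 reach 2.76.

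The control sets of GAPDH lie at the 3' end, in the middle and at the 5' end of the transcript. In the first series of these sets, 3' minus 5' was 1.20 to 1.94 in 13 tissues, 0.70 in blood, 0.10 in diaphragm and -0.01 in biceps femoris. In the other series it was highest in biceps femoris (1.47) and diaphragm (1.35) and lowest in blood (0.33). The series thus put muscle at opposite ends, and blood was below the other non-muscle tissues in both. One GAPDH probe with a mean of 9.10 had a profile of its own. It was at 5.69 (LWM), 5.60 (LWF), 6.23 (IBM) and 5.81 (IBF) in liver, and at 7.89 or more on all other arrays, and was 3.49 lower in liver than elsewhere. For the other 11 sets with a mean above 9, liver was 0.39 to 0.98 below the mean of the other tissues. What this probe measures besides GAPDH was not tested.

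Breed and sex moved these genes little. In the fit that takes arrays as replicates, 1 probe was higher in Large White (GPI, by 0.14 ± 0.04, SE, adjusted p = 0.031) and 1 was lower (the GAPDH probe with the liver profile, by 0.24 ± 0.07, adjusted p = 0.00846), where 6.15% of all probes were higher and 6.57% lower. With the means of the 4 animals as the unit 0 of the 12 probes passed, where 22 of all 23935 probes did. Without LWF or without IBF also 0 passed, where 1892 and 2283 of all probes did. Without LWM or without IBM 1 passed, where 1270 and 1324 of all probes did. The adjusted p of GPI was 0.15 to 0.33 with 1 animal left out and 0.43 with animal means. Males and females differed in 0 probes by limma, where 0.673% of all probes were higher in males and 0.781% lower, and 0 of the 12 had an unadjusted p under 0.05.

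Within tissues the breeds differed in both directions. The breed difference varied with tissue for 5 of the 12 probes by the interaction term in limma (3 GAPDH probes, GPI and ENO1, adjusted p = 0.0118 to 0.033), against 2.08% of all probes. Most no longer passed with 1 animal left out, but those fits leave 1 breed with 1 array per tissue and cannot decide. On the natural logarithm of the deposited values 0 passed, where 259 of all 23935 probes did. In liver GPI was at 9.98 and 10.16 in Large White and at 9.30 and 9.44 in Iberian pigs, which do not overlap, and the difference was 0.70 ± 0.12 (SE, adjusted p = 6.51e-04). GAPDH was at 12.91 and 12.93 against 12.33 and 12.48 (adjusted p = 0.00589), and 3 of the 12 probes passed in liver, all higher in Large White, where 2.67% of all probes passed in either direction. They were GPI, the brightest GAPDH probe and the GAPDH probe with a mean of 11.88. The other GAPDH probes did not pass, with differences of -0.37, -0.43 and 0.09 (Large White minus Iberian). Blood markers in liver were at a mean of 6.81 and 7.14 in Large White and 8.83 and 7.44 in Iberian pigs, and their part was not tested.

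The direction was opposite for GAPDH in abdominal fat. In abdominal fat GAPDH was at 12.02 (LWM), 12.27 (LWF), 12.72 (IBM) and 12.58 (IBF), higher in both Iberian pigs by 0.51 ± 0.11 (SE, adjusted p = 0.013). All 3 probes that passed there were GAPDH and higher in Iberian pigs, and 0.873% of all probes passed. In back fat only the GAPDH probe with the liver profile passed, higher in Iberian pigs, where 0.848% of all probes passed. The brightest GAPDH probe differed there by 0.03 ± 0.11 (SE, Large White minus Iberian) and did not pass. Over the 2 fats together the probe with the liver profile and ENO1 passed, where 2.77% of all probes did. ENO1 was 0.39 ± 0.10 higher in Iberian pigs (adjusted p = 0.015). The brightest GAPDH probe did not pass over the 2 fats in limma (adjusted p = 0.11). PFKM in abdominal fat was at 5.38 and 5.59 in Large White and at 6.45 and 6.52 in Iberian pigs. In abdominal fat 6 of the 8 genes had both Iberian arrays above both Large White arrays (23.3% of all probes), and in thyroid gland 6 had both Large White arrays above (23.6% of all probes). Mean fat marker levels were 9.99 and 10.08 in the abdominal fat of Large White and 9.88 and 10.77 in that of Iberian pigs.

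In biceps femoris ENO1 was at 9.76 (LWM), 9.90 (LWF), 10.22 (IBM) and 10.38 (IBF), higher in the Iberian pigs by 0.47 ± 0.14 (SE, adjusted p = 0.020). There 13.5% of all probes passed, and the array of IBF was the one that stood apart, without which ENO1 rests on 1 Iberian pig (10.22). In ileum 1 probe, the GAPDH probe with the liver profile, passed and was higher in Iberian pigs, where 0.723% of all probes did. Counted over all tissues, both Large White arrays were above both Iberian ones in 10 of 16 tissues for GPI and 10 for GAPDH, and the opposite held in 1 and 3. Over the 8 genes this gave 50 and 23 of 128 combinations, where the shares for all probes were 19.9% and 20.6%. These tissues come from the same 4 pigs and are not independent.

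**Figure D5:**
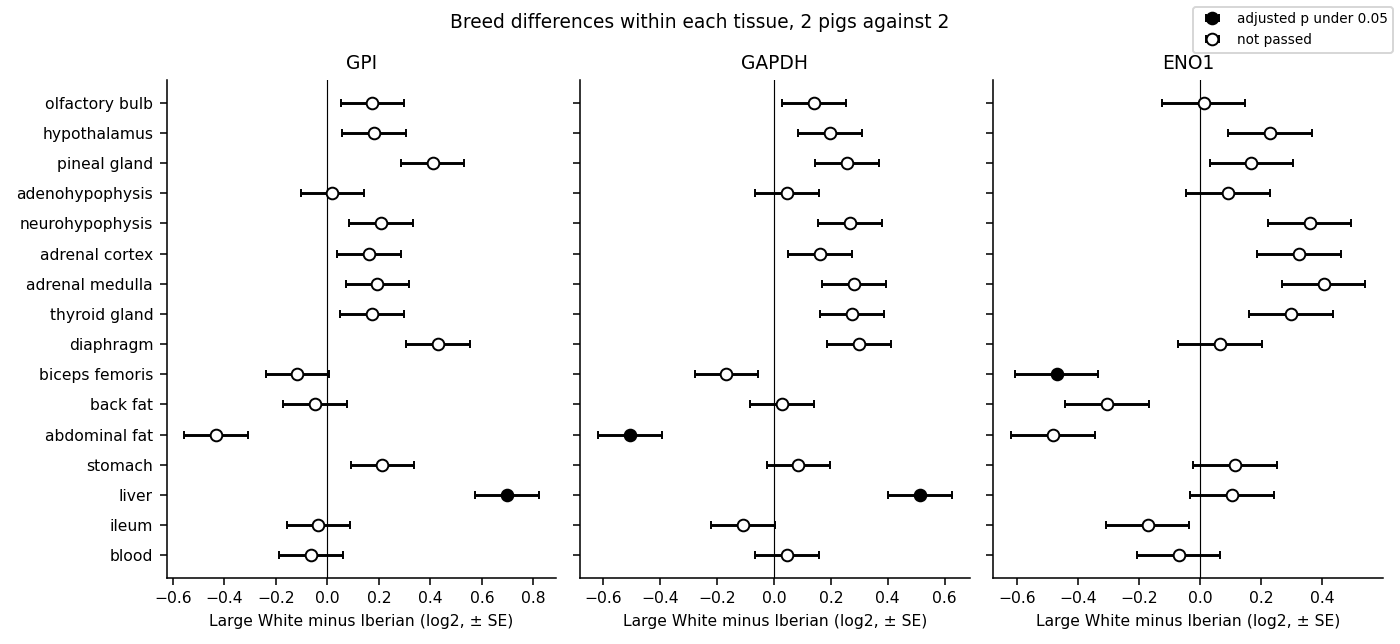
Large White minus Iberian (horizontal axis, log2, with SE) in each tissue (vertical axis) for GPI, GAPDH and ENO1, with filled points for an adjusted p under 0.05. GPI (0.70) and GAPDH (0.51) are positive in liver, and GAPDH (-0.51) in abdominal fat and ENO1 (-0.47) in biceps femoris are negative.

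The genes with the most similar profiles over the 16 tissue means were found by Pearson's r among the named probes, as a description. For ENO3 they were ACTC1 (0.94), SMTNL2 (0.92), MYOZ1 (0.92) and MLF1 (0.92), and for PFKM they were PKNOX2 (0.96), CAP2 (0.93), CAND2 (0.93) and IDH3A (0.93). GPI was followed by BCS1L (0.94), NDUFA8 (0.93), MRPL46 (0.92) and NDUFV2 (0.92), and PGK1 by NDUFS3 (0.91), BUD23 (0.91), TPI1 (0.90) and DMPK (0.90). Of these, NDUFA8, NDUFV2 and NDUFS3 are subunits of mitochondrial complex I and IDH3A is an enzyme of the citrate cycle. GAPDH was most like FAM213B (0.94), CARD19 (0.94), TPI1 (0.90) and IDH3A (0.89). LDHA was most like AKAP1 (0.95), TWF2 (0.90), RRAD (0.89) and MON1A (0.87), and LDHB like DHRS7 (0.88), MGST3 (0.85), MGLL (0.82) and GSN (0.81). ENO1 had the least similar neighbours, SPP1 (0.79), WARS (0.76), CXCL14 (0.75) and NME1 (0.73).

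Among the 8 genes themselves GAPDH and PGK1 had the highest r (0.86), which was 0.65 over the 14 tissues without the muscles. ENO3 and LDHA had an r of 0.77 with the muscles and 0.40 without. PGK1 and LDHA changed sign, from 0.43 to -0.63, and PGK1 and ENO3 from 0.69 to -0.42. Tissues share their animals, and the muscles are far from the others for most of these genes.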

How the data were processed

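Members, lists and tests were chosen with earlier results of these data known. The authors generated signals with GCOS, checked the arrays with the Affy package and normalized them together by RMA with libaffy (no versions are stated in what was read). As deposited, the values are log2 values after RMA. The methods add a logarithm, so the natural logarithm of the deposited values was an alternative. RMA equalises probe intensities between arrays before they are summarised, which can hide differences in total RNA, and the medians of the deposited arrays lay between 5.38 and 5.51.

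Of 24123 probe sets 188 controls were left out of the tests. Of the rest, 10069 probes have 1 gene symbol in the platform annotation, 198 several and 13668 none. All 21 member sets were found by Entrez number in the RefSeq gene table (Sscrofa11.1). No sequence or coordinate is given.

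Tissue, breed and sex were fitted over 64 arrays with limma 3.58.1 in R 4.3.3, with p adjusted by Benjamini and Hochberg over 23935 probes at an FDR of 0.05. Breed within tissue used a breed × tissue term. Other steps used Python 3.11.15, numpy 2.4.6, pandas 2.3.3, scipy 1.17.1 and matplotlib 3.10.9. The fit was tested on simulated data. The genes named were all member probes, for each of 3 pathway lists up to 4 genes that passed with the largest difference in a muscle contrast, and for each gene the 4 named probes of highest r. Other genes are tissue markers of fixed lists.

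Tissues are paired, since all came from the same 4 pigs: with tissue means removed, arrays of the same pig had a mean r of 0.189 over 480 pairs, 385 of them over 0.1. There is 1 array per tissue and pig, so the 4 arrays limit the precision. Alternatives were the animal as a replicate block, quantile normalization, the natural logarithm, probes above the median level, another prior, each animal, blood or both outlying arrays left out, and means of animals.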

Additional observations from a re-analysis of the deposited data

Results flagged for a closer look

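Over 128 groups of 4 arrays (8 genes in 16 tissues), 4 had 1 array far from the other 3, where chance gives about 1 in 20. PFKM in stomach was at 6.20 in IBF, against 7.85 to 8.02 in the other pigs. PFKM in blood was at 4.98 in LWF, against 5.26 to 5.29. PGK1 in adrenal cortex was at 10.88 in LWM, against 10.99 to 11.00. LDHA in thyroid gland was at 11.39 in LWM, against 10.73 to 10.83.

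The breed difference varied with tissue for 5 probes by the interaction term in limma. The adjusted p was 0.0118 for the GAPDH probe that is low in liver, 0.0157 for the brightest GAPDH probe, 0.016 for GPI, 0.0235 for ENO1 and 0.033 for the GAPDH probe with a mean of 11.88. These rest on 2 pigs against 2 in each tissue.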

How the results depend on the processing

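The counts for muscles, for brain, for each tissue and of extreme probes stayed within 1.5 times under all alternatives run. With the animal as a replicate block, the counts of probes called were 10 for the muscles, 6 for biceps femoris against diaphragm, 9 for brain, 142 (against 141 without the block) over the tissues and 5 for breed × tissue, and the paired tests of LDHB minus LDHA (-1.10) and ENO3 minus ENO1 (-0.18) gave exact p of 0.125 and 0.50. With that block, 16868 of all 23935 probes passed for the muscles, 6132 for biceps femoris against diaphragm and 16276 for brain. Over the tissues 193716 of 382960 tests passed, and for breed × tissue 592 probes. Between the muscles 2 probes passed with the 8 muscle arrays alone, where 134 of all 23935 probes did. For breed, 1 probe passed on the natural logarithm, where 2856 of all 23935 did, and 4 with the trend and robust prior, where 3038 did. Above the median level 4 of 10 member probes passed, beside 2077 of 11967 probes. With the means of the 4 animals 0 passed, beside 22 of all probes. With 1 animal left out 0 to 1 passed, beside 1270 to 2283 of all probes. For breed × tissue, 3 passed after quantile normalization, where 552 of all 23935 probes did, and 0 on the natural logarithm, where 259 did. Most no longer passed with 1 animal left out, but those fits leave 1 breed with 1 array per tissue and cannot decide. The cause was not tested. Of 448 values for single genes, 410 stayed on their side, 11 no longer passed, 5 newly passed (GAPDH between the muscles, and GAPDH and PGK1 between breeds) and 22 changed sign.

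Some differences that passed under no setting changed sign. With 1 animal left out, the breed difference ranged from -0.0091 to 0.0922 (ENO1), -0.0995 to 0.246 (ENO3), -0.0576 to 0.1116 (LDHB) and -0.106 to 0.0271 (PFKM), the sex difference from -0.2117 to 0.1339 (ENO3), -0.0092 to 0.0183 (GPI) and -0.1216 to 0.0476 (LDHB), LDHB in the muscles from -0.1105 to 0.0827, and PGK1 in the brain from -0.0707 to 0.0024. Without the 2 arrays set apart the sex difference was 0.0689 for ENO3 and -0.0005 for GAPDH. That of GPI was -0.0056 after quantile normalization and -0.0013 without blood. LDHB in the muscles was 0.0008 on the natural logarithm. Arrays have no depth, and 4 per tissue limit the precision.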
